A study of Mus musculus with 12 samples.

Results

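Forebrain RNA at birth (postnatal day 0, P0) was compared with forebrain RNA late in gestation (embryonic stage e17.5, named by its day) in mice of the C57BL/6N strain. The comparison used 8 of the 44 RNA libraries in the authors' expression table. These were the 5 P0 libraries and the 3 e17.5 libraries whose column name carries 1 as its first digit code. The study took whole forebrain from Chd8+/del5 mice, which carry a germline mutation in 1 copy of the chromatin remodeller gene Chd8, and from their wild-type littermates, at 5 stages that run from e12.5 to adults older than P56. The labels list 1 wild-type and 1 heterozygous sample per stage and do not explain the digit codes, so no library was matched to a labelled sample.

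The set of 8 libraries was proposed as wild type because Chd8 stands higher under code 1, and that reading rests on the values, not on a label. Chd8 was at 4.30, 4.60, 4.40, 4.44 and 4.46 log2 RPKM in the P0 libraries, against 4.47, 4.50 and 4.45 in the e17.5 libraries. In the libraries with another first code it ran between 3.69 and 4.14 at P0 (6 libraries) and between 3.70 and 4.05 at e17.5 (7 libraries). The groups are therefore called by their stage and code, and genotype is left unassigned. Chd8 itself lay within the same range at both stages, with a difference of medians of −0.03.

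The last days before birth are the time when the mouse forebrain passes from making neurons to making glia. Cycling progenitors along the ventricle divide less, astrocytes and oligodendrocyte precursors appear and spread, and young neurons assemble their first synapses. Birth itself changes the supply of oxygen, nutrients and hormones to the brain. Whole forebrain also holds vessels, blood, meninges and choroid plexus, whose shares can change with stage and with dissection.

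Values are log2 RPKM, that is, reads corrected for the length of the gene and the depth of the library. A gene was called higher or lower at P0 when the range of its P0 libraries and the range of its e17.5 libraries did not overlap. A difference is the P0 median minus the e17.5 median. No p-value is given, because the libraries could not be tied to labelled samples and nothing says which came from separate animals. In bulk tissue, fewer cells of a type and less RNA per cell cannot be told apart.

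Of 12102 genes compared, 1914 were higher at P0 (15.8%) and 2035 were lower (16.8%). Large differences were few. Ranges apart together with medians at least 2-fold different were found in 84 genes higher at P0 (0.694%) and in 65 genes lower at P0 (0.537%). The median difference over all genes was 0.01. The central 80% of genes lay between −0.43 and 0.47, and 83.7% of genes differed by less than 0.5. Differences between the stages were thus small and spread over many genes.

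2 features of the 8 libraries touch every value below. First, the e17.5 values had been adjusted in a way that no other stage shows. The 10 e17.5 libraries carry 2 sets of sample numbers in their names, 5 in each. In a linear model with this set and both digit codes, the term for the set was 0 within 1e-06 in 12102 of 12102 genes. With the set as the only term its median size was 0.0754. A gene's lowest value, where several libraries share it, was equal within 1e-04 between stages in 59 of 59 cases without e17.5 and in 0 of 43 cases with it. Stage and this step coincide, so their parts in a small difference cannot be told apart. Second, the sexes were not balanced. Xist, the long RNA made from the inactive X chromosome of female cells, stood above 0 in 5 of 5 P0 libraries and in 2 of 3 e17.5 libraries. The remaining one, e17.5 library 1, held the Y-linked gene Ddx3y at 4.09. Of 3 sex-linked genes compared, 1 counted as lower at P0, and this was Ddx3y. Its 5 P0 libraries ran from −5.94 to −4.39, and the remaining e17.5 libraries stood at −4.25 and −4.30. These 7 values lie at the bottom of the scale.

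**Figure D1:**
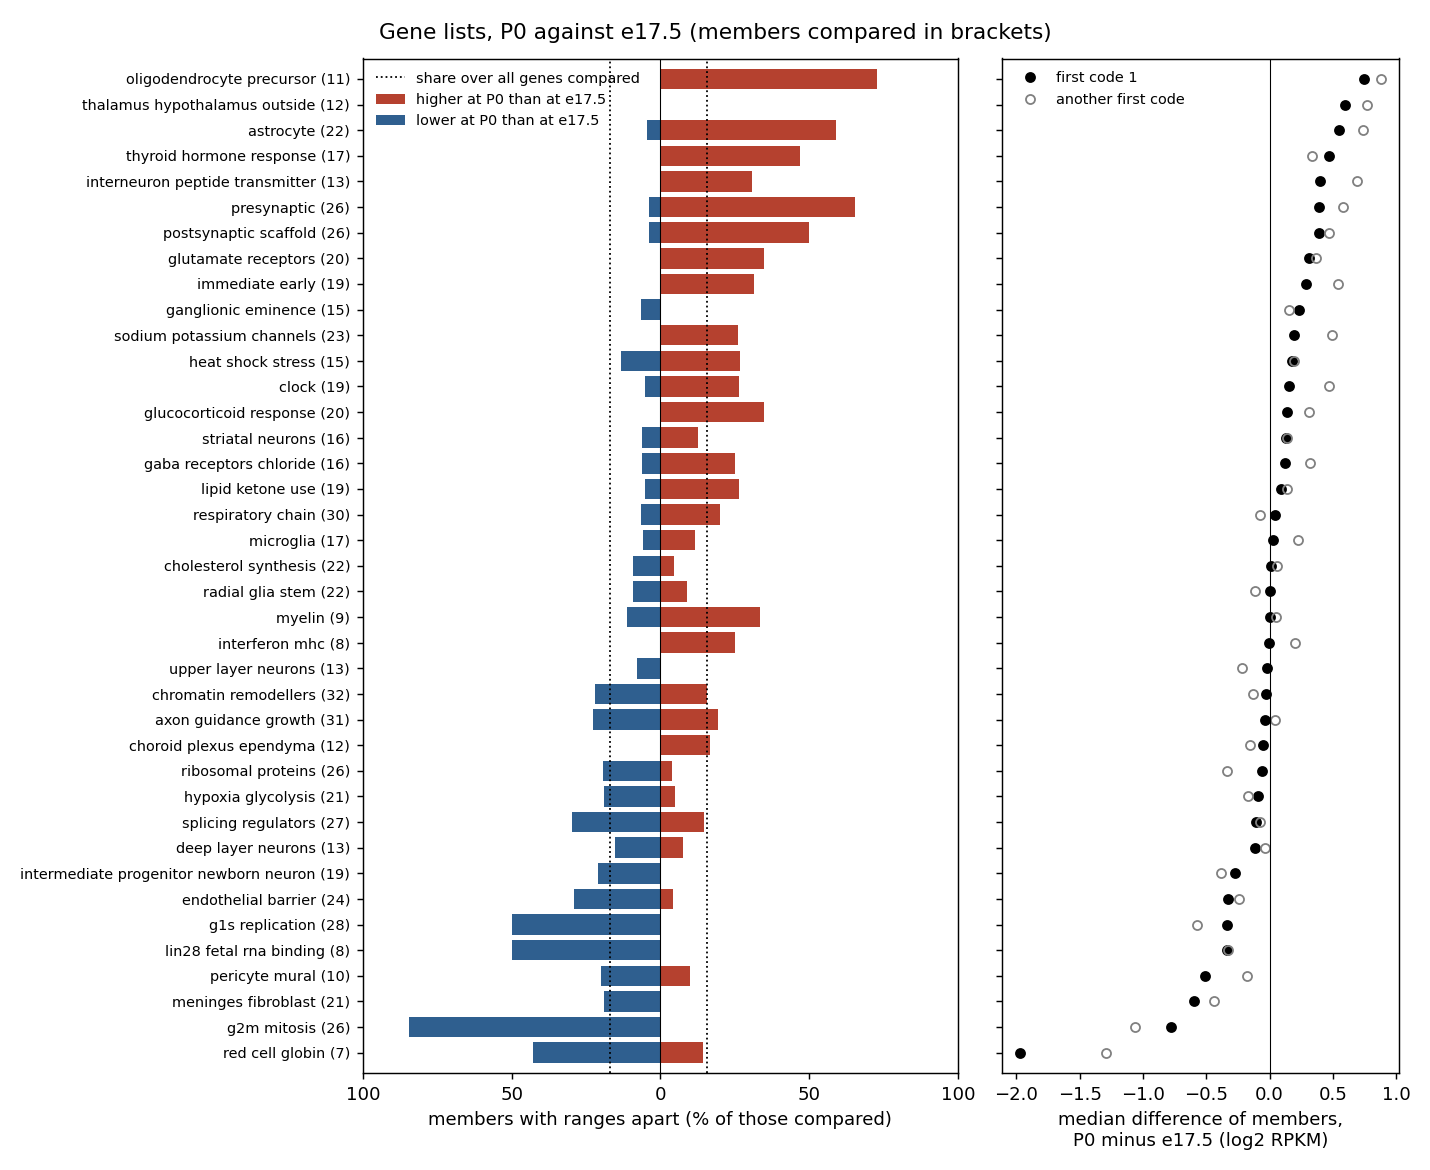
Gene lists in P0 against e17.5. Left: share of each list's compared members whose ranges were apart, higher at P0 (red, to the right) or lower at P0 (blue, to the left), in percent, with dotted lines at the shares over all genes (15.8% and 16.8%). Right: median difference of the members, P0 minus e17.5 in log2 RPKM, in the libraries with first code 1 (filled) and with another first code (open). In the left panel, oligodendrocyte precursor, presynaptic and astrocyte lists reach farthest to the right, and the mitosis list farthest to the left.

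Mitosis genes had the largest share of members lower at P0 among the 40 lists. These genes build the spindle, condense and separate chromosomes, and are read in dividing progenitors. Of 26 members, 22 were lower at P0, 0 were higher, and the median difference was −0.78, against 0.01 over all genes. The remaining 4 (Aurka, Cdc20, Plk1 and Ncapd2) had overlapping ranges, and 26 of 26 differences were below 0. Their summed level was 160.2, 138.8, 126.8, 194.9 and 171.3 RPKM in the P0 libraries, against 284.6, 246.4 and 226.8 RPKM in the e17.5 libraries. P0 library 4 was the highest of its stage, and without it 26 of 26 members were lower at P0.

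Ncapg, a subunit of the condensin complex that compacts chromosomes, was at 0.35, 0.53, 0.37, 1.24 and 0.85 log2 RPKM in the P0 libraries, against 2.37, 1.73 and 1.52 in the e17.5 libraries. Ccnb1, the cyclin that drives entry into mitosis, was at 0.52, 0.24, −0.17, 0.88 and 0.63 at P0, against 2.03, 1.60 and 1.69 at e17.5. Bub1, a kinase of the spindle checkpoint, was at 0.57, 0.47, 0.56, 0.75 and 0.69 at P0, against 1.94, 1.69 and 1.71 at e17.5. In these 3 genes every P0 library lay below every e17.5 library, and e17.5 library 1 was the highest. The differences were −1.20, −1.17 and −1.14 on the log2 scale. Aurkb, the kinase of the chromosomal passenger complex, differed by −1.08, Ndc80, which ties kinetochores to microtubules, by −1.05, and Kif23, a kinesin of cell division's last step, by −1.03. The marker of cycling cells Mki67 had a smaller difference of −0.65, and Top2a, which untangles DNA, one of −0.89.

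**Figure D2:**
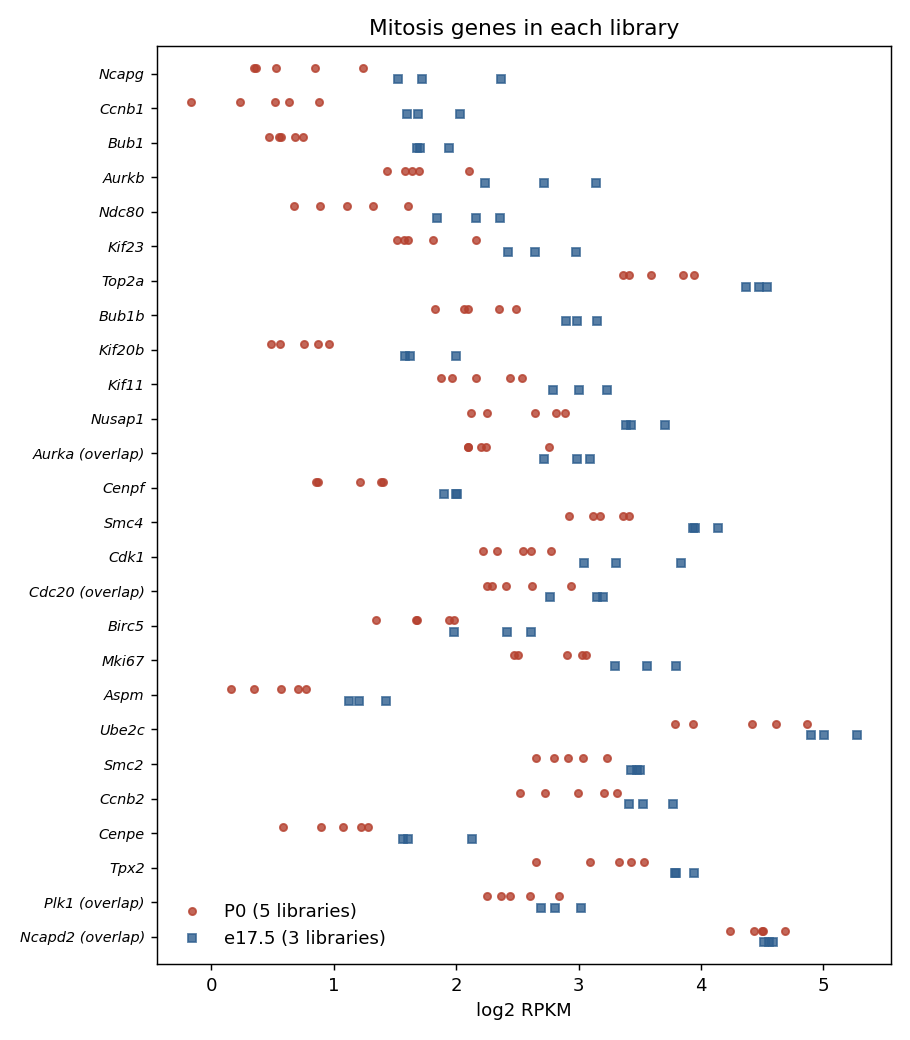
The 26 mitosis genes, 1 row each, in log2 RPKM on the horizontal axis. Red circles are the 5 P0 libraries and blue squares below them the 3 e17.5 libraries, and genes are ordered by the size of the difference. In 22 rows all circles lie left of all squares (in Birc5 by less than the width of a symbol), and the 4 rows marked as overlap are Aurka, Cdc20, Plk1 and Ncapd2.

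Mitosis genes are known to share promoter elements, the cell cycle homology region (CHR) and the CCAAT box, through which the DREAM complex and NF-Y act. The promoter windows of 3 members are shown because they illustrate how these letters are arranged in genes that were lower at P0. Each is 300 bases of the RefSeq build GRCm38.p6, 250 before and 50 after the start of the gene, written 5′ to 3′ along the gene. Capitals mark TTTGAA or its reverse complement TTCAAA (CHR) and CCAAT or its reverse complement ATTGG.
Ncapg, chr5:45669675-45669974, plus strand: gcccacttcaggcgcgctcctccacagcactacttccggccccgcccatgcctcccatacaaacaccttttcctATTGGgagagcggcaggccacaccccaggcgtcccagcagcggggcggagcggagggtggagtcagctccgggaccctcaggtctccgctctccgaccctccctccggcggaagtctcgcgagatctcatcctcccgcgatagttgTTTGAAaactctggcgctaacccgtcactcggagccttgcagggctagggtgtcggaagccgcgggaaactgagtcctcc
Kif23, chr9:61946750-61947049, minus strand: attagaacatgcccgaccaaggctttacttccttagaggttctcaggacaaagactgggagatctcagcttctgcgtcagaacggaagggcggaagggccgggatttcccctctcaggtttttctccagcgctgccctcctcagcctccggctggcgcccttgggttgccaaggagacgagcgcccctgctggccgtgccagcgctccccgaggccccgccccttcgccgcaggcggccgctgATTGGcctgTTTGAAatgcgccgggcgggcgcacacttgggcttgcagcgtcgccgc
Ccnb1, chr13:100786437-100786736, minus strand: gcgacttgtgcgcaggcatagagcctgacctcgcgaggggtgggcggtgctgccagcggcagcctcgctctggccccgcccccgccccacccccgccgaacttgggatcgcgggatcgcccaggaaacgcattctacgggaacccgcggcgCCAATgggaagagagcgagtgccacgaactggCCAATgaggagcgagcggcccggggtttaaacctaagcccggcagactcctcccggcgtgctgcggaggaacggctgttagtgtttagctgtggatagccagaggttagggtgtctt
Ncapg and Kif23 hold both motifs, and Ccnb1 holds 2 CCAAT boxes and no CHR letters in this window.

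Of the 26 mitosis genes, 23 had a promoter window in the RefSeq table. On either strand, the CHR letters stood in 18 of the 23 windows (78.3%), against 11.2% of the 11903 windows of all compared genes. CCAAT stood in 19 of 23 (82.6%), against 37.5%. Both motifs together stood in 16 of 23 (69.6%), against 4.51%. Among the 19 windows of members lower at P0, CHR letters stood in 14 (73.7%), CCAAT in 15 (78.9%) and both in 12 (63.2%). These shares were not larger than those of all 23 windows. A letter shared by neighbouring motifs was allowed. In the 28 windows of DNA replication genes, CHR letters were in 14.3% and CCAAT in 64.3%. A match describes the letters only.

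DNA replication and S phase genes were also lower at P0, though by less. Of 28 members, 14 were lower, 0 were higher and the median difference was −0.33. Uhrf1, which guides maintenance of DNA methylation at the replication fork, was at 1.94, 1.95, 1.77, 2.02 and 1.89 log2 RPKM at P0, against 2.88, 2.80 and 2.49 at e17.5 (difference −0.86). The gap between its ranges was wider than the spread among the P0 libraries. E2f2, a transcription factor of S phase entry, differed by −0.85, Pola1, the catalytic subunit of the primase polymerase, by −0.81, and Cdc6, a licensing factor, by −0.74. Pcna, the sliding clamp, was also lower, with a difference of −0.23.

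Progenitor and newborn neuron lists had fewer members apart. Of 19 genes of intermediate progenitors and newborn neurons, 4 were lower at P0 (21.1%, against 16.8% of all genes) and 0 were higher, with a median of −0.27. Neurog2, the proneural factor of cortical progenitors, was at 2.26, 1.34, 1.90, 3.26 and 2.74 log2 RPKM at P0, against 3.86, 3.85 and 3.88 at e17.5. Its P0 libraries spread over almost 2 log2 units while the e17.5 libraries were nearly equal, and the difference was −1.60. Mfng, a Notch modifier, differed by −0.92, the RNA-binding protein gene Elavl2 by −0.49 and Nhlh2 by −0.11. Of 22 radial glia genes, 2 were lower (9.09%, against 16.8% of all genes) and 2 were higher (9.09%, against 15.8%), with a median of 0.01. Under quantile normalization 4 were lower and 1 was higher. Hmga2, a chromatin protein of fetal stem cells, differed by −1.37. It was at low levels, from −2.69 to −1.85 log2 RPKM at P0 and from −1.56 to −0.82 at e17.5. The intermediate filament gene Nes differed by −0.40, while the glutamate transporter Slc1a3 was higher by 0.58 and glutamine synthetase Glul by 0.23. Slc1a3 is also on the astrocyte list.

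Fetal growth genes of the Lin28 axis were lower or overlapping. Of 8 members, 4 were lower at P0, 0 were higher, and the median was −0.34. Beside Hmga2, which was at low levels, these were Igf2bp1 (−0.67), Igf2bp2 (−0.41) and Igf2bp3 (−0.41), which encode RNA-binding proteins of fetal tissue. Igf2bp1 was at 0.25, 0.34, 0.09, 0.55 and −0.08 log2 RPKM in the P0 libraries, against 1.31, 0.92 and 0.92 in the e17.5 libraries. No P0 library reached the lowest e17.5 library.

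Oligodendrocyte precursor genes had the largest share of members higher at P0 among the lists. Of 11 members, 8 were higher, 0 were lower, and the median difference was 0.75. Summed, they were at 239.6, 284.4, 271.9, 202.8 and 240.5 RPKM at P0, against 122.8, 147.0 and 158.6 RPKM at e17.5. Bcas1, which marks cells at the step between precursor and myelin-forming cell, was at 2.26, 2.93, 2.56, 1.80 and 1.84 log2 RPKM at P0, against 0.20, 0.53 and 1.22 at e17.5. The difference was 1.73. Sox10, the lineage transcription factor, was at 3.40, 3.67, 3.59, 2.97 and 3.11 at P0, against 2.27, 2.32 and 2.69 at e17.5 (difference 1.08). Nkx2-2, a patterning and lineage factor, differed by 1.76, but its lowest P0 library and its highest e17.5 library both stood at 1.05 after rounding. Cspg5, a neural proteoglycan, differed by 0.83, and the lineage factors Olig2 and Olig1 by 0.76 and 0.75. Pdgfra, the growth factor receptor of the precursors, Tnr and Lhfpl3 had overlapping ranges, with differences of 0.25, 0.23 and 0.36.

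Genes of myelin did not follow as a group. Of 9 compared, 3 were higher (33.3%, against 15.8% of all genes), 1 was lower (11.1%, against 16.8%), and the median was 0.01. With another first code, 0 were higher and 0 were lower. Mag, an adhesion protein of the myelin sheath, differed by 0.89, at a level below 1 log2 RPKM in all 8 libraries. Cnp differed by 0.34 and Mbp, a main myelin protein, by 0.28. Cldn11 was at 2.13, 2.67, 1.67, 3.46 and 2.22 log2 RPKM at P0, against 3.90, 3.995 and 3.67 at e17.5 (difference −1.68). Cldn11 forms tight junctions in myelin and also in the meninges. P0 library 4, where it was highest, also had the highest sum of meningeal genes at P0, and the part of meninges in this value was not tested.

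Astrocyte genes were mostly higher at P0. Of 22 members, 13 were higher, 1 was lower, and the median was 0.55. Their summed level was 1051, 1540, 1209, 1008 and 1032 RPKM at P0, against 691.8, 731.2 and 686.6 RPKM at e17.5. Gfap, the intermediate filament protein of astrocytes, was at 3.43, 3.07, 4.12, 2.83 and 3.19 log2 RPKM at P0, against 1.54, 1.27 and 1.65 at e17.5. Aqp4, the water channel of astrocyte endfeet, was at 2.83, 3.76, 3.06, 2.40 and 2.88 at P0, against 1.21, 1.52 and 1.77 at e17.5. Both genes had ranges well apart, with differences of 1.66 and 1.35. Gpc5, a cell surface proteoglycan, differed by 1.54, the adhesion protein gene Hepacam by 1.30, and Apoe, which carries lipids between brain cells, by 1.18. Gja1, a gap junction protein, was the lower member, with a difference of −0.81, and Gjb6, another one, had overlapping ranges and a difference of −1.66.

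Agt, the precursor of angiotensin made by astrocytes, had the largest difference among the higher genes named for size, at 2.38 or 5.21-fold. It was at 1.47, 3.78, 1.14, 2.44 and 2.38 log2 RPKM at P0, against −0.62, 0.00 and 0.77 at e17.5. In the mouse brain Agt is made mostly outside the cortex, so genes of thalamus and hypothalamus were set beside it. Of 12 such genes, 0 had ranges apart in either direction, and the median was 0.60. Their summed level was 22.4, 116.5, 16.6, 55.1 and 89.0 RPKM in the P0 libraries, against 11.4, 41.9 and 33.2 RPKM in the e17.5 libraries. Tcf7l2, a factor of thalamic neurons, was at 2.08, 5.78, 1.90, 4.44 and 5.57 log2 RPKM at P0, against −0.17, 3.71 and 2.85 at e17.5. P0 library 2 was the highest in Agt, in Nkx2-2 and in these genes, and e17.5 library 1 was the lowest in all 3. Prox1, another member, differed by 0.35 with overlapping ranges. The part of dissection in the differences of Agt and Nkx2-2 was not tested.

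**Figure D3:**
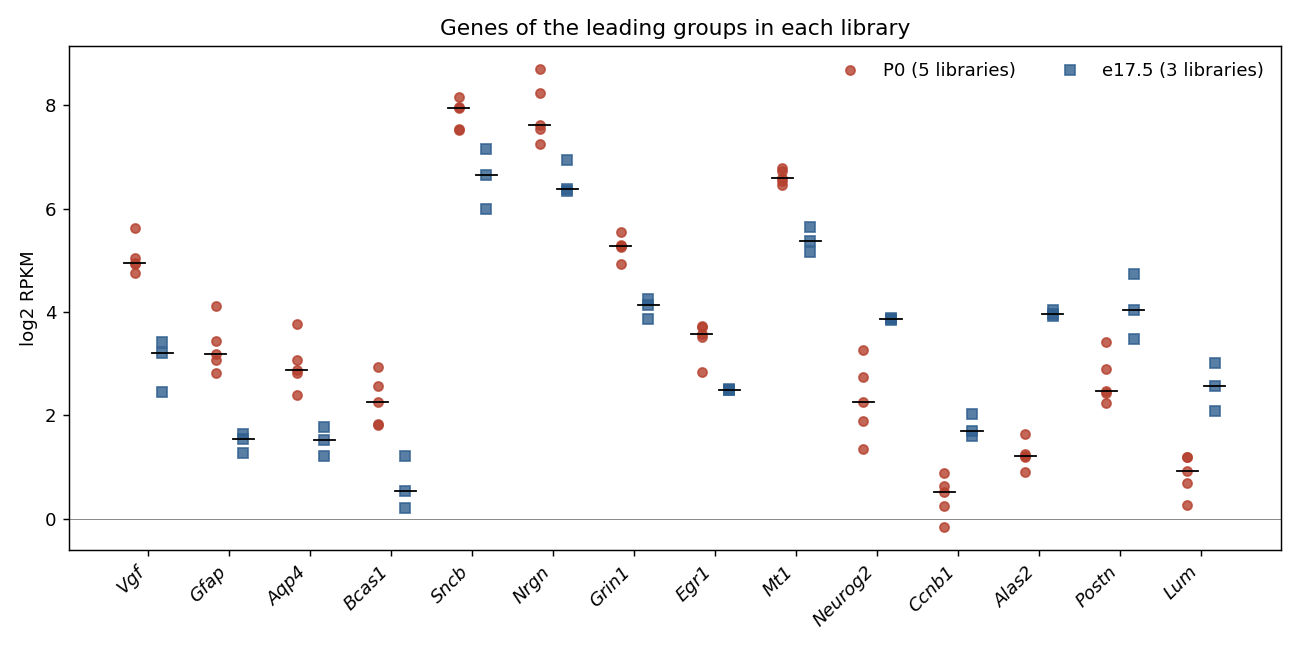
Levels of 14 genes in log2 RPKM in each library. Red circles are the 5 P0 libraries, blue squares the 3 e17.5 libraries and black bars the medians. From Vgf to Mt1 every P0 library lies above every e17.5 library, and from Neurog2 to Lum every P0 library lies below.

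Genes of the presynaptic terminal were higher at P0 in most cases. Of 26 members, 17 were higher, 1 was lower, and the median difference was 0.39. Sncb, beta-synuclein, was at 7.94, 8.17, 7.53, 7.53 and 7.97 log2 RPKM at P0, against 6.00, 6.65 and 7.16 at e17.5 (difference 1.29). Vamp2, the synaptic vesicle SNARE, was at 8.74, 8.63, 8.53, 8.40 and 8.73 at P0, against 7.80, 7.82 and 8.36 at e17.5 (difference 0.81). In both genes the e17.5 library 3 came nearest to the P0 range. Syn1, which tethers vesicles, differed by 0.76 and Vamp1 by 0.71. Syt4, a calcium sensor homolog of dense core vesicles, was the lower one, with a difference of −0.31. The vesicular glutamate transporters Slc17a7 and Slc17a6 had overlapping ranges, with differences of 0.03 and −0.24.

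Postsynaptic scaffold genes were similar in size of difference. Of 26 members, 13 were higher, 1 was lower (Dlg1, −0.32), and the median was 0.39. Nrgn, neurogranin, which binds calmodulin in spines, was at 8.23, 7.54, 8.71, 7.25 and 7.61 log2 RPKM at P0, against 6.38, 6.34 and 6.95 at e17.5 (difference 1.24). Camk2a, the synaptic kinase, was at 5.14, 5.06, 5.23, 4.78 and 4.89 at P0, against 4.198, 4.19 and 4.53 at e17.5 (difference 0.87). Every P0 library was above every e17.5 library in both genes. The scaffold protein Shank1 differed by 0.79 and Dlg4, which encodes PSD-95, by 0.63.

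Receptor and channel genes included fewer members apart. Of 20 glutamate receptor genes and their partners, 7 were higher (35%, against 15.8% of all genes) and 0 were lower. The median was 0.31. Grin1, the subunit that every NMDA receptor needs, was at 5.28, 5.55, 5.30, 4.92 and 5.26 log2 RPKM at P0, against 3.87, 4.13 and 4.25 at e17.5 (difference 1.15). Grin2d differed by 0.79, Grik4 by 0.70 and the AMPA receptor partner Cacng8 by 0.60. Of 16 GABA receptor and chloride transporter genes, 4 were higher (25%, against 15.8% of all genes), or 2 under quantile normalization. Another 1 was lower, and the median was 0.12. The chloride exporter Slc12a5 (KCC2) was at 3.98, 5.57, 4.37, 4.26 and 4.50 at P0, against 3.19, 3.91 and 3.68 at e17.5. The chloride importer Slc12a2 (NKCC1) was at 2.96, 3.08, 3.17, 3.13 and 3.22 at P0, against 3.36, 3.24 and 3.31 at e17.5. Both pairs of ranges were apart, with a difference of 0.68 for the exporter and of −0.17 for the importer. The ranges of the importer nearly touched (3.22 at P0 and 3.24 at e17.5). With another first code, the exporter's ranges overlapped, with a difference of 1.12. Gabra5 differed by 0.58, Gabbr2 by 0.40, with its ranges nearly touching, and Gabbr1 by 0.28. Of 23 sodium and potassium channel genes, 6 were higher (26.1%) and 0 were lower, with a median of 0.19. Among the higher ones were the glial channel Kcnj10 (0.88) and Kcnj4 (0.80).

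Genes that respond to neuronal activity were higher in 6 of 19 cases (31.6%, against 15.8% of all genes) and lower in 0. Their median was 0.29. Egr1 was at 3.70, 3.52, 3.73, 2.83 and 3.57 log2 RPKM at P0, against 2.49, 2.50 and 2.52 at e17.5 (difference 1.08). Npas4, a factor induced mainly by calcium entry, was at 1.49, 2.06, 1.41, 0.92 and 1.01 at P0, against 0.59, −0.02 and 0.46 at e17.5 (difference 0.95). Egr2 differed by 1.47 and Nr4a1 by 0.86. Fos and Egr4 had differences of 1.004 and 1.80 but overlapping ranges, and Arc differed by 0.19. P0 library 4 was the lowest of its stage in Egr1, Npas4, Fos and Arc.

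Among the other genes named for size, Vgf, a secreted neuropeptide precursor, was at 4.95, 5.63, 4.94, 4.75 and 5.05 log2 RPKM at P0, against 2.45, 3.21 and 3.43 at e17.5 (difference 1.74). Gpr37l1, a receptor of glia, differed by 1.87, Dkkl1, a Dickkopf-like secreted protein, by 1.88 and the phospholipase Pla2g3 by 1.64. Lamp5, a membrane protein of neurons, differed by 1.45, and Prrt1, a partner of AMPA receptors, by 1.41. In Vgf the lowest P0 library (4.75) stood above the highest e17.5 library (3.43) by more than the spread within either stage.

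Neuron subtype lists other than the interneuron list held few members apart. Of 13 interneuron transmitter and peptide genes, 4 were higher (30.8%, against 15.8% of all genes) and 0 were lower, with a median of 0.40. With another first code, 4 were higher too (30.8%, against 11.5% of all genes). Penk, which encodes enkephalin, was higher by 1.15, and the vesicular GABA transporter Slc32a1 by 0.40. Pvalb differed by 2.11, but stayed below 1 log2 RPKM in all 8 libraries. Of 16 striatal genes, Rgs9 (0.67) and Gng7 (0.15) were higher and Rarb (−0.45) was lower. Of 15 ganglionic eminence genes, Dlx6os1 was lower (−0.56), and it lies antisense to Dlx6, so reads of the partner could be counted with it. Of 13 deep-layer genes, Sox5 (−0.57) and Nfib (−0.50) were lower and Zfpm2 (0.21) was higher, and of 13 upper-layer genes Rorb (−0.48) was lower. Except for the interneuron list, these shares were below those over all genes. Under quantile normalization, 4 of the 13 deep-layer genes were lower and 1 of the 16 striatal genes was higher.

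Axon growth genes, chromatin remodellers and splicing regulators had shares near those over all genes in at least 1 direction. Of 31 axon growth genes, 6 were higher (19.4%, against 15.8% of all genes) and 7 were lower (22.6%, against 16.8%), with a median of −0.04. Under quantile normalization 2 were higher and 8 lower. Epha3 (−0.73), the semaphorin receptor Nrp1 (−0.62) and Plxna2 (−0.48) were lower, and Slit1, a repellent ligand, was higher (0.49). Of 32 chromatin remodellers, 5 were higher (15.6%) and 7 were lower (21.9%), and under quantile normalization 2 were higher and 8 lower. Suz12 (−0.65), Smarca5 (−0.62) and Actl6a (−0.49), a BAF subunit of progenitors, were lower, and Chd5 (0.61), a neuronal CHD remodeller, was higher. Of 27 splicing regulators, 4 were higher (14.8%) and 8 were lower (29.6%), with a median of −0.11, and under quantile normalization 2 were higher and 12 lower. The neuronal regulators Rbfox3 (0.77) and Celf5 (0.75) were higher, and Elavl1 (−0.67), found in most cells, and Srsf3 (−0.53) were lower.

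Of 24 endothelial genes, 7 were lower at P0 (29.2%, against 16.8% of all genes) and 1 was higher, with a median of −0.33. In the libraries with another first code, 2 of the 24 were lower (8.33%, against 12.2% of all genes) and 1 was higher. The endothelial receptor Tek was at 1.42, 1.64, 1.60, 1.67 and 1.60 log2 RPKM at P0, against 2.55, 2.36 and 2.30 at e17.5 (difference −0.75). Pecam1 (−0.66) and the VEGF receptor Kdr (−0.64) were also lower, Kdr with its highest P0 and lowest e17.5 library both at 3.28 after rounding, and the amino acid transporter Slc7a5 (0.57) was higher. Of 10 pericyte genes, Rgs5 (−0.65) and Kcnj8 (−0.49) were lower (20%, near the 16.8% of all genes). Cspg4 (0.61), which oligodendrocyte precursors also make, was higher (10%, against 15.8%). Of 17 microglia genes, Trem2 (0.86) and Lyz2 (0.17) were higher (11.8%) and Fcrls (−0.55) was lower (5.88%), both shares below those over all genes.

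Alas2, the enzyme that starts heme synthesis in red cells, had the largest difference among lower genes, −2.75. It was at 0.90, 1.25, 1.21, 1.63 and 1.20 log2 RPKM at P0, against 3.96, 4.05 and 3.92 at e17.5. On the linear scale, the P0 median was 6.72-fold lower than the e17.5 median. Of 7 red cell genes compared, 3 were lower and 1 was higher. The lower ones beside Alas2 were the anion exchanger Slc4a1 (−2.12) and the embryonic globin Hba-x, which stood at its lowest value, −2.99, in 5 of 5 P0 libraries and at −0.08, −0.49 and −0.76 at e17.5. Both were at low levels.

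Of 21 genes of meninges and fibroblasts, 4 were lower (19.0%, near the 16.8% of all genes) and 0 were higher, and 20 differences were below 0, with a median of −0.59. Lum, a matrix proteoglycan, was at 0.93, 0.70, 1.19, 1.19 and 0.27 log2 RPKM at P0, against 3.005, 2.57 and 2.08 at e17.5 (difference −1.64). Postn, periostin, was at 2.42, 2.91, 2.23, 3.42 and 2.48 at P0, against 4.74, 4.04 and 3.48 at e17.5 (difference −1.57). Dcn differed by −1.12 and the collagen gene Col1a1 by −1.08. The summed level of the list overlapped between stages, at 428.7, 776.7, 476.5, 998.3 and 455.3 RPKM at P0 and 716.0, 671.1 and 549.5 RPKM at e17.5. P0 libraries 2 and 4 were above all e17.5 libraries in this sum. Without P0 library 4, 8 members were lower at P0. Ogn (−1.62), Lox (−1.54), Lepr (−1.44) and Cped1 (−1.44), which are on no list here, were among the 12 largest lower differences, and the first 2 encode matrix proteins. Of 12 choroid plexus and ependyma genes, the cilia genes Rsph1 (0.93) and Foxj1 (0.76) were higher (16.7%, near the 15.8% of all genes). In this list 0 were lower, 7 differences were below 0, and the median was −0.05.

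Lists on the physiology of birth gave mixed results. Of 17 genes that respond to thyroid hormone, 8 were higher (47.1%, against 15.8% of all genes) and 0 were lower. Their median was 0.47. With another first code, 4 were higher (23.5%, against 11.5% of all genes) and 1 was lower. Klf9, a direct target of thyroid hormone and of glucocorticoids, was at 3.13, 2.85, 3.79, 3.01 and 2.69 log2 RPKM at P0, against 2.05, 2.20 and 2.22 at e17.5 (difference 0.80). Beside Nrgn, the list held Flywch2 (0.95) and Itih3 (2.32), the last from a level below 0 at e17.5. Of 20 glucocorticoid responsive genes, 7 were higher (35%) and 0 were lower, with a median of 0.14. In the libraries with another first code, 4 were higher (20%) and 3 lower (15%, against 12.2% of all genes). Mt1, a metallothionein that binds zinc and copper, was at 6.46, 6.53, 6.60, 6.78 and 6.74 at P0, against 5.15, 5.38 and 5.65 at e17.5 (difference 1.22). Per1 (0.61) and Pdk4 (0.78), a kinase that spares glucose, were also higher.

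Metabolic lists held few members apart, with shares near or below those over all genes in most. Of 21 hypoxia and glycolysis genes, P4ha1 (−0.82), Hk2 (−0.45), Egln3 (−0.34) and Pdk1 (−0.33) were lower (19.0%) and Pdk4 was higher, and under quantile normalization 7 were lower. P4ha1, a collagen hydroxylase induced by low oxygen, was at 2.57, 2.41, 2.76, 2.69 and 2.75 log2 RPKM at P0, against 3.52, 3.51 and 3.38 at e17.5. Of 19 lipid and ketone genes, 5 were higher (26.3%, against 15.8% of all genes), among them Acadl (0.58) and Angptl4 (0.52), and 1 was lower. Of 22 cholesterol synthesis genes, Pmvk (0.42) was higher and Nsdhl (−0.39) and Sqle (−0.22) were lower. Of 30 respiratory chain genes, 6 were higher (20%), or 2 under quantile normalization, among them Ndufa1 (1.30) and Cox8a (0.57). Another 2 were lower (6.67%), Ndufc1 (−0.71) and Uqcrb (−0.70).

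Of 15 stress genes, 4 were higher (26.7%, against 15.8% of all genes) and 2 were lower (13.3%, against 16.8%). Sesn2 (1.23), Asns (0.74), both targets of the amino acid response, and the chaperone partner Bag3 (0.59) were higher, while Xbp1 (−0.63) of the unfolded protein response counted as lower, though its highest P0 library and its lowest e17.5 library both stood at 5.65 after rounding. Of 19 clock genes, 5 were higher (26.3%), among them Npas2 (0.78) and Arntl (0.59), and 1 was lower. Of 8 interferon and MHC genes, H2-D1 (0.48) and H2-K1 (0.19) were higher (25%, against 15.8% of all genes). With another first code, 0 of them were higher. Near-identical MHC genes may share their reads. Of 26 ribosomal protein genes, Rpl39 (−1.73), Rps10 (−1.03) and 3 more were lower (19.2%, near the 16.8% of all genes). Rpl27 (1.09) was higher (3.85%, against 15.8%), so the list did not move together. Ribosomal protein genes have many processed copies, which makes single values uncertain. Cdr1 (−1.63), which lies antisense to a circular RNA, is uncertain because the sources do not state whether reads were counted by strand, and Cenpk (−1.40), a centromere protein, completed the 12 largest lower differences.

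The libraries with another first code gave the same comparison in samples that the choice of libraries had not used. Among them, 1395 genes were higher at P0 (11.5%) and 1481 were lower (12.2%). Of the 1914 genes higher under code 1, 902 were higher in these too, 1011 overlapped and 1 was lower. Of the 2035 lower genes, 1057 were lower in these too, 978 overlapped and 0 were higher. Of the 149 genes with ranges apart and medians at least 2-fold different, 148 had the same sign, 93 were apart the same way and 75 had a difference at least as large. The exception in sign was Mir17hg, the host transcript of a microRNA cluster tied to proliferation. It was at 0.61, 0.30, 0.76, 1.23 and 1.11 log2 RPKM at P0, against 3.65, 1.69 and 2.09 at e17.5, while in the other libraries the medians were 0.65 at P0 and 0.48 at e17.5. It was chosen for mention after its values were seen. Both sets of e17.5 libraries passed through the same adjustment, so they are not independent in this respect.

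The lists with the largest shares were counted in the other libraries too. Mitosis genes were lower in 16 of 26 cases (median −1.06) and replication genes in 13 of 28 (median −0.57), with 0 higher in each. Oligodendrocyte precursor genes were higher in 8 of 11 cases (median 0.88), astrocyte genes in 9 of 22 (0.74), presynaptic genes in 15 of 26 (0.58) and postsynaptic genes in 13 of 26 (0.47), with 0 lower in each. Meningeal genes were apart in 0 of 21 cases, with a median of −0.44. Alas2 differed by −2.58, with ranges apart, and Agt by 3.42, with overlapping ranges.

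**Figure D4:**
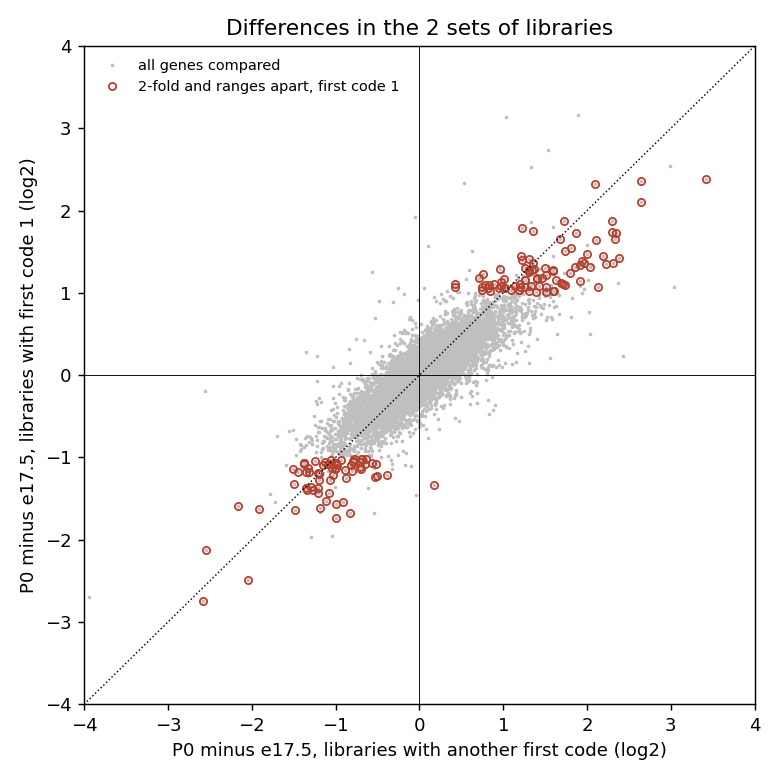
Difference of each gene, P0 minus e17.5 in log2 RPKM, in the libraries with first code 1 (vertical axis) against the same in the libraries with another first code (horizontal axis). Grey dots are all genes compared and red circles the 149 genes with ranges apart and medians at least 2-fold different under code 1. The dotted line marks equal differences, 3 genes lie outside the axes, and 148 of the 149 circles lie in the lower left or upper right of the plot.

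The levels of the same genes at the other stages place these differences in the course of development. Medians of the code 1 libraries are given from e12.5 over e14.5, e17.5 and P0 to adult, with 4, 3, 3, 5 and 3 libraries. Reads of e12.5 were paired ends of 100 bp, and those of later stages were single ends of 50 bp. Ccnb1 was at 6.26, 3.81, 1.69, 0.52 and −3.40 log2 RPKM, and Neurog2 at 6.35, 6.02, 3.86, 2.26 and −1.61. Gfap was at −4.79, −2.90, 1.54, 3.19 and 4.37, and Sncb at 2.41, 4.82, 6.65, 7.94 and 8.85. In each of these 4 genes the medians followed the order of the stages, downwards in the first pair and upwards in the second. Grin1, at −0.46, 2.49, 4.13, 5.28 and 6.55, and Vgf, at −0.74, 2.01, 3.21, 4.95 and 7.21, followed it upwards as well.

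Other genes had their turning point near birth. Postn was at 1.63, 2.68, 4.04, 2.48 and −0.39 log2 RPKM, so its highest median was at e17.5. Alas2 was at 3.51, 4.01, 3.96, 1.21 and 1.54, with its largest step between e17.5 and P0. Pla2g3 was at −1.99, −1.67, 0.77, 2.42 and 0.20, with its highest median at P0. Nkx2-2 was at 2.92, 1.45, −0.11, 1.64 and 0.64, lowest at e17.5. Adult library 1 lay apart from the other 2 adult libraries of code 1, as the long adult lines in the plot of levels by stage show.

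**Figure D5:**
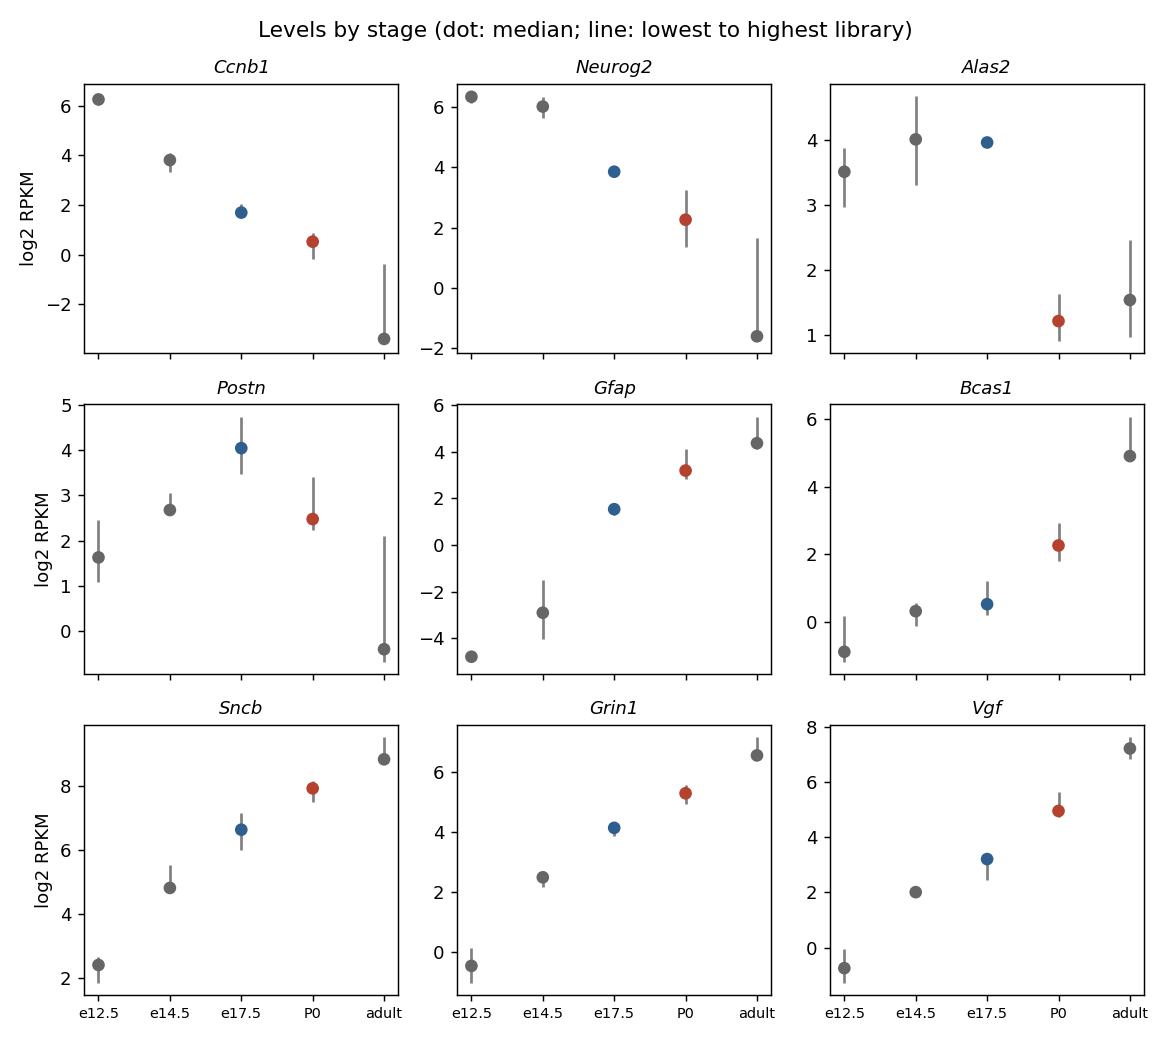
Levels of 9 genes by stage in log2 RPKM, from e12.5 to adult, in the libraries with first code 1. Dots are medians, with e17.5 in blue and P0 in red, and lines run from the lowest to the highest library. Alas2 stays near 4 up to e17.5 and is near 1 from P0 on, and Postn is highest at e17.5.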

How the data were processed

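Polyadenylated RNA of mouse forebrain was sequenced from stranded libraries, per the labels' protocols. The submitters' processing notes name the aligner STAR 2.4.2a and the build mm9. How reads were counted, on which annotation and with what normalization is not given in the sources used here. As deposited by the authors, values are log2 (log RPKM per the labels, with an unstated prior count that understates differences of low genes). Depth is unknown. The table holds 12158 genes and 44 libraries, while the labels list 10 RNA samples, and 0 columns could be matched to 1 sample.

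Genes with a mean at or below −2 over all libraries (56) were left out. Libraries were grouped by the stage and first digit code in the column names, and numbered in table order, which is only a name. Calls used non-overlapping ranges and differences of medians, checked on simulated data, with Python 3.11.15, pandas 2.3.3 and numpy 2.4.6. For calls, that check required recovery only at shifts of at least 2 log2 units, larger than most differences given here. Genes were named by a rule: the 12 largest differences in each direction among genes apart with a mean of at least 0 over the 8 libraries, up to 4 members apart per list, Chd8, and up to 2 members of highest level in a list with none; other list members were added beside them after their values were seen. The comparison, the 40 lists and the rule were chosen with earlier results of these data known. Alternatives covered scaling, low-value filters, the prior, the mean and the libraries. The Chd8 peak list was not used here. A few named genes and their values were left out of the text and of the search for outlying libraries, but stay in every count over lists or genes.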

Additional observations from a re-analysis of the deposited data

Results flagged for a closer look

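Among the 5 P0 libraries, 178 sets of values were searched for a library far from the others: 139 of the genes the naming rule gave and the sums of 39 lists. The search gave 9 such sets, and chance alone, at about 1 in 20, would give about 8.9. The e17.5 group, with 3 libraries, was not searched. P0 library 2 was the lowest in Pdk4 (0.25 log2 RPKM) and the highest in Pmvk (6.10). It was also the lowest in the summed levels of the ribosomal protein list (2946 RPKM) and the stress list (779.7 RPKM). P0 library 4 was the highest in Nes (4.38) and the lowest in Egr1 (2.83) and Cspg5 (6.59). P0 library 1 was the lowest in Hk2 (−0.65), and P0 library 3 was the highest in the summed clock list (210.4 RPKM).

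Rpl19, a ribosomal protein gene, differed in direction between the sets of libraries. Under first code 1 it was higher at P0 by 0.69 log2, with medians of 0.02 at P0 and −0.67 at e17.5. Under another first code it was lower, with a difference of −0.53, and the difference between the sets was not tested. Its median in the code 1 libraries was 8.94 log2 RPKM at e12.5, read as paired ends of 100 bp, and between −0.67 and 0.48 at the 4 later stages, read as single ends of 50 bp.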

How the results depend on the processing

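No paired analysis was possible because the columns carry no replicate number that the labels explain. Under median centring, quantile normalization, no low filter, a mean of at least 0 or the mean in place of the median, the counts of genes higher and lower at P0 and the 7 list counts led with stayed within 1.5 times. The other 73 list counts were less steady: 15 moved by over 1.5 times under quantile normalization, and over all settings 168 of 1168 values did, 35 of them with another first code. Of 144 named genes with ranges apart, 143 stayed apart under median centring and 134 under quantile normalization. With 1 added to each RPKM, 38 genes were at least 2-fold higher at P0 and 16 lower. With all libraries of both stages, 592 genes were higher and 760 lower, the members lower were 9 of mitosis, 9 of replication and 0 of meninges, and those higher were 10 presynaptic, 7 astrocyte and 4 oligodendrocyte precursor. A range over more libraries can only be wider, so these counts can only fall. With another first code, 159 genes were at least 2-fold higher and 102 lower, and 0 meningeal genes were lower. Leaving out 1 library can only add genes apart. The 2-fold higher count then ran from 77 to 142 and the 2-fold lower count from 47 to 119, and meningeal genes lower from 4 to 8. Without e17.5 library 1, which leaves 1 sex, 2530 genes were higher and 2423 lower. The 2-fold higher count was 128 without e17.5 library 2 and 142 without e17.5 library 3.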
